A study of Homo sapiens with 6 samples.

Results

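The 37 genes described here are the members of the human HOX clusters in a messenger RNA table of RCC10 cells, taken as every row whose symbol is HOXA, HOXB, HOXC or HOXD followed only by a number. The table holds 19009 genes, and the members are 11 HOXA, 9 HOXB, 8 HOXC and 9 HOXD genes. Transcripts of HOXB1 and HOXC12 were not analysed here. RCC10 is an established human line from a clear cell carcinoma of the kidney and has no working VHL, the part of a ubiquitin ligase that recognises the HIF alpha subunits. The 6 libraries form 3 groups of 2. HIF double-knockout cells received guide RNAs against HIF-1alpha and HIF-2alpha by lentivirus and were selected with puromycin, VHL-restored cells received a lentivirus carrying VHL, and parental cells were the control. All were grown in DMEM with 10% FBS, and libraries were made from messenger RNA.

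HOX genes encode homeodomain transcription factors that mark position along the body axis and the limbs. Each cluster is ordered: genes of low number lie at the 3′ end and are used toward the head, and genes of high number lie at the 5′ end and are used toward the tail. Genes with the same number in different clusters are paralogs. In the mouse, the paralogs of group 11 are needed for the metanephric kidney, and cultured cells often keep the HOX pattern of the place they came from. Cofactors of the PBX and MEIS families help HOX proteins choose their DNA sites, and Polycomb and trithorax proteins keep HOX genes off or on.

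Library totals ranged from 22248126 to 29929116 counts. Levels are CPM, counts scaled to library size with TMM factors, and 3 counts in a library correspond to 0.101 to 0.132 CPM. The labels were checked on the targeted genes. EPAS1, which encodes HIF-2alpha, had 44.4 and 48.0 CPM in double-knockout, 362.7 and 369.4 in VHL-restored, and 352.1 and 348.9 CPM in parental libraries. HIF1A had 29.6 and 31.6 CPM in double-knockout, 304.1 and 286.2 in VHL-restored, and 69.5 and 72.9 CPM in parental libraries. VHL had 43.3 and 47.4 CPM in double-knockout, 651.5 and 722.7 in VHL-restored, and 38.8 and 39.5 CPM in parental libraries. Markers of renal epithelium (PAX8, PAX2, LHX1, CDH16 and EMX2) summed to 383 to 404 CPM in double-knockout, 429 to 443 in VHL-restored and 336 to 347 in parental libraries. Most of each sum was PAX8. CDH16 had 1.64 and 1.83 CPM in double-knockout, 21.1 and 23.2 in VHL-restored, and 31.9 and 28.7 in parental libraries. PAX8, PAX2 and LHX1 averaged higher in double-knockout (363, 15.35 and 13.3 CPM) than in parental cells (301, 1.67 and 9.19 CPM). EMX2 had no count in double-knockout libraries. Leukocyte markers summed to at most 0.393 CPM and endothelial markers to at most 0.176 CPM in any library, with PTPRC, CD3E, PECAM1 and KDR at 0 in all 6. Fibroblast markers, of which 4 of 5 were in the table, summed to 1.37 to 1.48 CPM in double-knockout, 8.54 to 10.2 in VHL-restored and 8.59 to 8.69 in parental libraries. Nearly all of each sum was COL1A1. This gene had 1.37 and 1.44 CPM in double-knockout, 10.05 and 8.29 in VHL-restored, and 8.49 and 8.60 in parental libraries. DCN had no count in either engineered line, and 2 and 0 counts in parental libraries. Clear cell carcinoma markers summed to 6380 to 6410 CPM in double-knockout, 5340 to 5710 in VHL-restored and 8150 to 8180 in parental libraries, most of it VIM. CA9 had at most 1 count in any library. NDUFA4L2 had 0.0342 and 0 CPM in double-knockout, 0.0715 and 0.214 in VHL-restored, and 60.05 and 57.3 in parental libraries. KRT18 averaged 842 CPM in double-knockout, 955 in VHL-restored and 348 in parental cells. HBB, the 1 erythroid marker of 2 in the table, was at 0 throughout. The part of these marker differences in the results below was not tested, and fewer cells of a type cannot be told apart from less RNA per cell. No group had a non-targeting guide or an empty vector, and it is not given whether the engineered cells were clones or pools, so effects of transduction, selection and cell population cannot be told apart from those of HIF or VHL. The labels do not say that replicates were separate cultures, so the p-values reflect how far these libraries scatter, and that scatter may be only technical.

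A member was taken as on in a line when both libraries held at least 1 CPM, as off when each held 3 counts or fewer, and as between otherwise. By this rule 19 members were on in double-knockout, 18 in VHL-restored and 23 in parental cells, and 17 were on in all 3 lines. In double-knockout cells 7 members were off, in VHL-restored cells 10 and in parental cells 7. The shared code included HOXA3, HOXA4, HOXA5, HOXA9 and HOXA10, then HOXB2, HOXB3, HOXB4 and HOXB7, then HOXC4, HOXC6, HOXC8, HOXC9 and HOXC10, and finally HOXD1 and HOXD8. HOXB13 and HOXD3 had no count in any library, and HOXB5, HOXD4 and HOXD12 were off in all 3 lines. Parental cells alone had HOXA13, HOXC5, HOXD9, HOXD10 and HOXD11 on, and the engineered lines alone had HOXB9 on. HOXA2 was on in double-knockout and parental cells and between in VHL-restored cells, at 1.22 and 0.965 CPM. HOXC5 sat close to 1 CPM in all 3 lines, HOXA2 missed the line in VHL-restored library 2 alone, and HOXB9 reached 0.977 CPM in parental library 1.

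**Figure D1:**
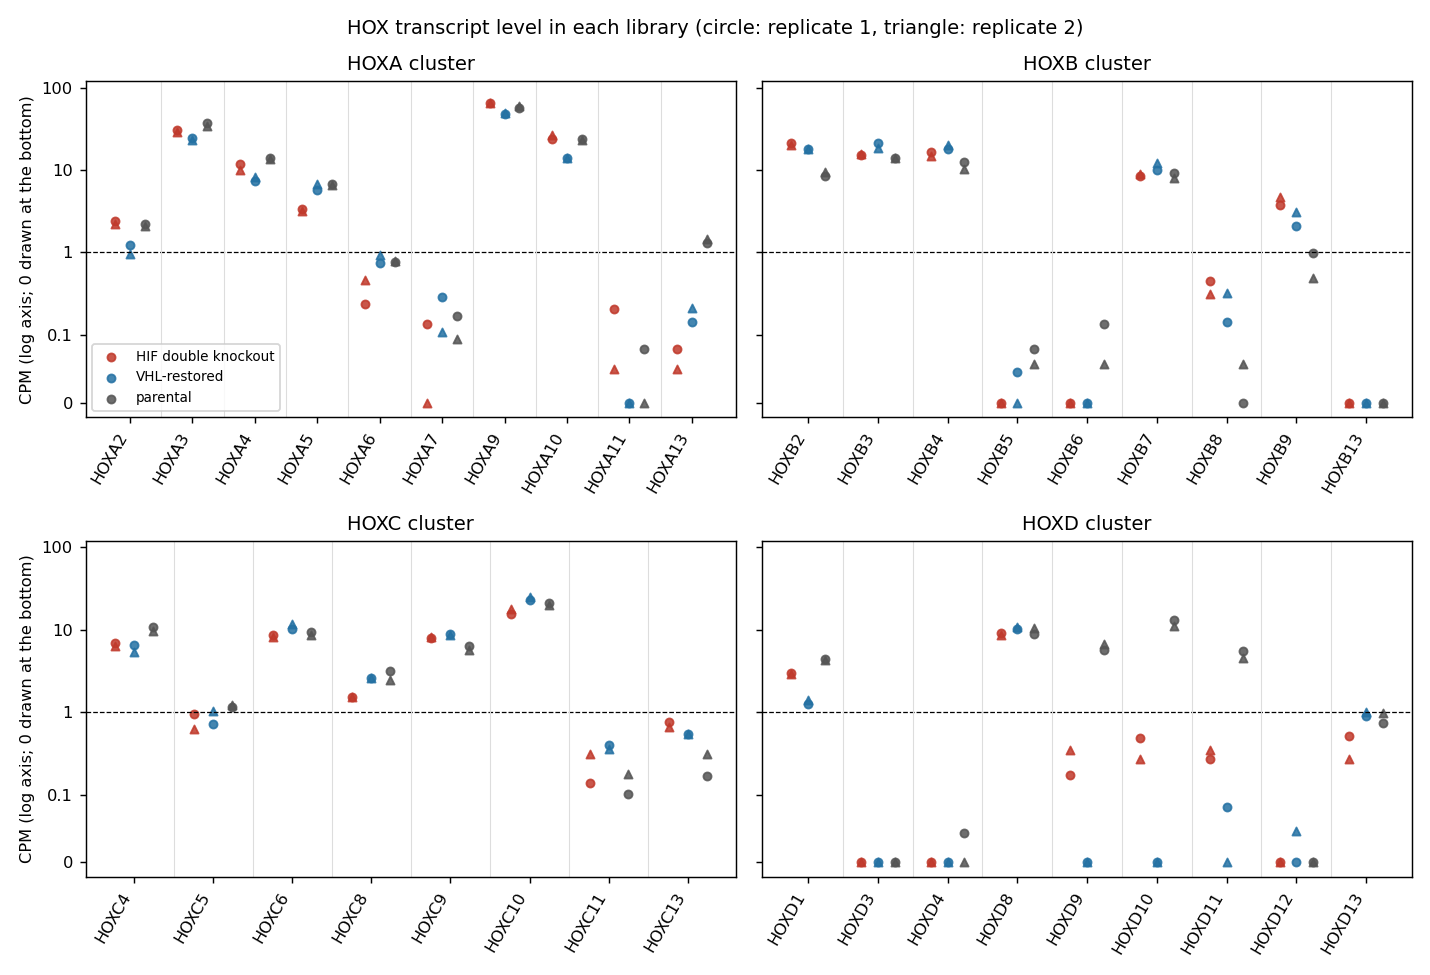
The level of the HOX genes in CPM (log axis, libraries with no count drawn at the bottom) is plotted per library, ordered by number within each cluster, with double-knockout in red, VHL-restored in blue and parental in grey. The dashed line marks 1 CPM; HOXD9, HOXD10, HOXD11 and HOXA13 lie above it in parental libraries and below it in all 4 engineered ones.

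Over all clusters, 35 of the 37 members had a count and were tested. In double-knockout against parental cells 21 of 35 (60%) were called at an adjusted p of 0.05 (edgeR's quasi-likelihood test with Benjamini-Hochberg adjustment, as throughout), 8 higher and 13 lower, beside 54.1% of all 18273 genes tested, 26.6% higher and 27.5% lower. This count changed when single libraries were left out, and so did the count over all genes. In VHL-restored against parental cells 21 of 35 were called, 10 higher and 11 lower, beside 54.2% of all genes, 26.5% higher and 27.7% lower. Between the engineered lines 20 of 35 were called, 11 higher and 9 lower in double-knockout cells, beside 56% of all genes, 28% higher and 28% lower. These shares are near the background. Calls of at least 2-fold were made for 12 members (34.3%) in double-knockout cells, beside 16.3% of all genes, for 9 (25.7%) in VHL-restored cells, beside 14.5%, and for 8 (22.9%) between the engineered lines, beside 16.6%. The median log2 fold change of the members was -0.25, -0.09 and 0.00 in the 3 comparisons, and -0.19, -0.04 and 0.15 with genes of few counts set to their bound or counting ratio, beside 0 for all genes. DESeq2's test ended 16 of these calls, namely the double-knockout calls of HOXD1 (adjusted p = 0.0721), HOXA4 (0.0687), HOXA6 (0.118), HOXA9 (0.053), HOXC13 (0.0579) and HOXD13 (0.119) and the VHL-restored calls of HOXB7 (0.0664), HOXB8 (0.0653), HOXC6 (0.133), HOXC10 (0.0996) and HOXC13 (0.176), and between the engineered lines those of HOXA6 (0.0822), HOXB4 (0.0625), HOXB7 (0.0732), HOXB9 (0.0689) and HOXD13 (0.0669). Both comparisons with parental cells use the same 2 parental libraries, so their values are not independent of each other.

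**Figure D2:**
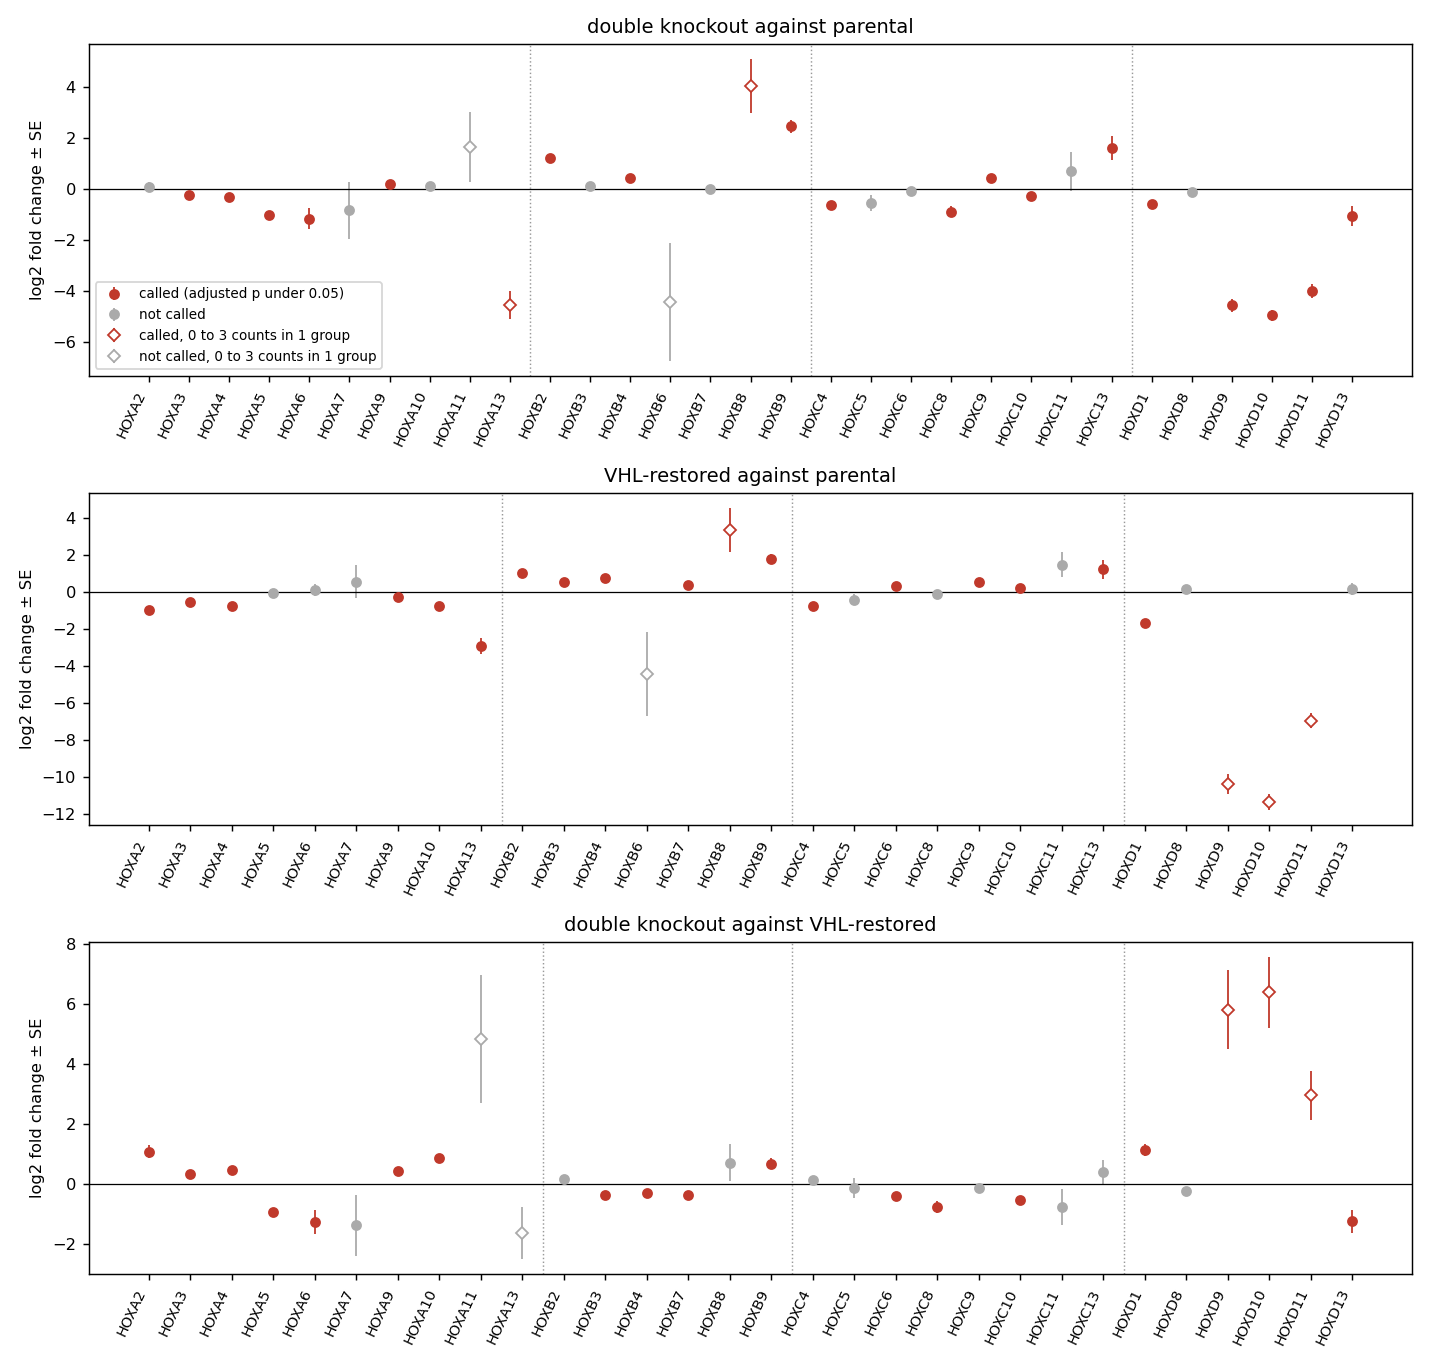
The log2 fold change of the HOX genes (± SE, first-named line over second) is plotted for the 3 comparisons, with called genes in red, others in grey, and open diamonds for genes with 0 to 3 counts in 1 group, whose fitted value depends on the prior count. HOXD9, HOXD10, HOXD11 and HOXA13 lie farthest below 0 among the called genes in both comparisons with parental cells, and HOXB2 and HOXB9 lie above it.

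The clearest differences in the code were in the HOXD cluster on chromosome 2, in the adjacent genes HOXD9, HOXD10 and HOXD11, which encode posterior homeodomain factors used in the trunk, limb and urogenital tract. Promoter windows of these genes are shown because the genes changed side by side while HOXD8, the next gene on the 3′ side, passed in none of the 3 comparisons (between the engineered lines it passed under 3 other settings, given with its values). HOXA13, the 5′-most gene of its cluster, is added because it fell as well. The sequences are from RefSeq (GRCh38.p14) and run from 250 bases before to 50 after the start site, 5′ to 3′ on the gene's strand. Capitals mark ACGTG or GCGTG on either strand, the core of the HIF binding motif. HOXD9 is named only.
HOXD11 (chr2:176107030-176107329, plus strand): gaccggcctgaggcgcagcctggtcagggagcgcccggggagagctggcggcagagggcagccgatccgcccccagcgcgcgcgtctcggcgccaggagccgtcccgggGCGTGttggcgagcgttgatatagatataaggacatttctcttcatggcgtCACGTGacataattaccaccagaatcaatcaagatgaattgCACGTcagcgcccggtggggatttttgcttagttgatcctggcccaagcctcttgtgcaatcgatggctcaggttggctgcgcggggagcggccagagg
HOXD10 (chr2:176116528-176116827, plus strand): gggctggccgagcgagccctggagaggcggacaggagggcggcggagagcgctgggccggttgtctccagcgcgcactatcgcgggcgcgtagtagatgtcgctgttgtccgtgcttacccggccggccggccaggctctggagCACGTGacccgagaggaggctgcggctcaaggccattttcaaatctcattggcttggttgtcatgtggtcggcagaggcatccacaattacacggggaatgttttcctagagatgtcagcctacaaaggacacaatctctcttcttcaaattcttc
HOXD8 (chr2:176129455-176129754, plus strand): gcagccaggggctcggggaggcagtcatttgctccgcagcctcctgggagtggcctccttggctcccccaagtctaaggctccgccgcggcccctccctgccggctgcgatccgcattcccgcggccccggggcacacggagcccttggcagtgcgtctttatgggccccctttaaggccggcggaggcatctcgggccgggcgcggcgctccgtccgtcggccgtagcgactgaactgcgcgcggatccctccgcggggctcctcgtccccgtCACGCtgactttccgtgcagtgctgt
HOXA13 (chr7:27200042-27200341, minus strand): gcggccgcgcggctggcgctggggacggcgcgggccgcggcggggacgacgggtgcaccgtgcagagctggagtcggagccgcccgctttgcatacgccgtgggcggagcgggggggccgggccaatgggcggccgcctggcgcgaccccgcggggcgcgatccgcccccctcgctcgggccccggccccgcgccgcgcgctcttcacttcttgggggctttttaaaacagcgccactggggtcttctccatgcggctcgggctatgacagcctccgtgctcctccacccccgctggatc

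HOXD10 had 0.479 and 0.272 CPM in double-knockout, no count in VHL-restored, and 12.97 and 10.98 CPM in parental libraries. It fell in double-knockout cells by 4.96 ± 0.21 (SE) on the log2 scale or 31.2-fold (adjusted p = 1.1e-18). In VHL-restored cells it was at least 226-fold lower, with the floor of 3 counts set over the group (adjusted p = 5.5e-20). The parental libraries stood far above all 4 engineered ones.

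HOXD9 had 0.171 and 0.350 CPM in double-knockout, no count in VHL-restored, and 5.66 and 6.75 CPM in parental libraries. It fell 23.8-fold in double-knockout cells (adjusted p = 2.4e-15) and was at least 114-fold lower in VHL-restored cells (adjusted p = 9.3e-17). HOXD11 had 0.274 and 0.350 CPM in double-knockout, 0.0715 and 0 CPM in VHL-restored, and 5.56 and 4.499 CPM in parental libraries. It fell 16.2-fold in double-knockout cells (adjusted p = 4.6e-14). In VHL-restored cells it had 2 counts in all, 143-fold lower by the ratio of counts (95% counting interval 39.1 to 1184) (adjusted p = 1.2e-15). Both counts lay in VHL-restored library 1, and without library 2 the fitted log2 fold change was -6.06, against -6.98 over all libraries. For all 3 genes the groups did not overlap.

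The 3 genes were also higher in double-knockout than in VHL-restored cells, though both were low. HOXD10 had 14 and 7 counts in double-knockout libraries and none in VHL-restored ones, at least 7.12-fold higher (adjusted p = 2.3e-05). HOXD9, with 5 and 9 counts in double-knockout libraries and none in VHL-restored ones, was at least 4.75-fold higher (adjusted p = 0.00032). HOXD11 was 8.64-fold higher by the ratio of counts, with bounds of 2.05 and 77.1 (adjusted p = 0.0023). Without VHL-restored library 2 its fitted log2 fold change was 2.04 (adjusted p = 0.0356), against 2.96 over all libraries. These counts are few, and the intervals and floors cover counting error only.

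The rest of the HOXD cluster differed less. HOXD8, a central gene, had 9.16 and 8.58 CPM in double-knockout, 10.3 and 10.8 in VHL-restored, and 8.90 and 10.6 in parental libraries. Its log2 fold changes against parental cells were -0.12 ± 0.11 (adjusted p = 0.40) in double-knockout and 0.12 ± 0.11 (adjusted p = 0.39) in VHL-restored cells, and the value between the engineered lines was -0.24 ± 0.11 (adjusted p = 0.0635), which passed with median centring, expression filtering or a replicate block (adjusted p from 0.0296 to 0.0446). HOXD1, the 3′-most gene, had 2.94 and 2.87 CPM in double-knockout, 1.25 and 1.39 in VHL-restored, and 4.45 and 4.23 in parental libraries. It fell 1.495-fold in double-knockout cells (adjusted p = 0.0021) and 3.28-fold in VHL-restored cells (adjusted p = 1.7e-09), and was 2.195-fold higher in double-knockout than in VHL-restored cells (adjusted p = 9.0e-06). HOXD13, the 5′-most gene and a distal limb and genital factor, had 0.513 and 0.272 CPM in double-knockout, 0.894 and 1.00 in VHL-restored, and 0.741 and 0.970 in parental libraries. It fell 2.10-fold in double-knockout cells (adjusted p = 0.022), a call lost without either parental library or double-knockout library 2 (adjusted p from 0.0539 to 0.188). In VHL-restored cells its log2 fold change was 0.17 ± 0.33 (adjusted p = 0.70). It was lower in double-knockout than in VHL-restored cells (log2 fold change -1.24, adjusted p = 0.0060), which was lost without double-knockout library 2 (adjusted p = 0.0928). Of 8 tested HOXD members, 5 fell in double-knockout cells, beside 27.5% of all genes, and 4 fell in VHL-restored cells, beside 27.7%.

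In the HOXA cluster on chromosome 7, HOXA13 had 2 and 1 counts in double-knockout, 4 and 6 in VHL-restored, and 39 and 33 in parental libraries. HOXA13 acts in the distal limb and the urogenital outlet. Its level was 0.0684 and 0.0388 CPM in double-knockout, 0.143 and 0.214 in VHL-restored, and 1.31 and 1.46 in parental libraries. It was lower in double-knockout cells, 25.2-fold by the ratio of counts with bounds of 8.29 and 125 (adjusted p = 1.9e-08), and fell 7.54-fold in VHL-restored cells (adjusted p = 7.3e-07). The engineered lines were not told apart (ratio 3.28, double-knockout lower, counting interval 0.844 to 18.5, adjusted p = 0.12). HOXA11, its neighbour, had at most 6 counts in any library.

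HOXA5, a central gene with roles in lung and axial skeleton, had 3.35 and 3.22 CPM in double-knockout, 5.76 and 6.75 in VHL-restored, and 6.81 and 6.53 in parental libraries. It fell 2.03-fold in double-knockout cells (adjusted p = 2.5e-07) and was 1.90-fold lower there than in VHL-restored cells (adjusted p = 1.3e-06), whereas VHL-restored cells had a log2 fold change of -0.09 ± 0.13 against parental cells (adjusted p = 0.55).

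HOXA9 had the highest level per exon length of all members in each line (31.7, 23.3 and 28.1 CPM per kb in double-knockout, VHL-restored and parental cells), and is known for its part in blood progenitors and leukaemia. It had 64.9 and 65.5 CPM in double-knockout, 47.2 and 48.9 in VHL-restored, and 56.1 and 59.9 in parental libraries. It was 1.36-fold higher in double-knockout than in VHL-restored cells (adjusted p = 2.4e-06). Against parental cells it rose 1.13-fold in double-knockout cells (adjusted p = 0.038), which was lost without any 1 of the 4 libraries compared (adjusted p from 0.0586 to 0.263). It fell 1.21-fold in VHL-restored cells (adjusted p = 0.0017), which was lost without parental library 2 (adjusted p = 0.0609). The table also lists a read-through unit, HOXA10-HOXA9, with 85.5% to 88.9% as many counts as HOXA9 in each library, so reads of the 2 units cannot be told apart. HOXA10, used in the uterus, limb and kidney stroma, had 23.9 and 26.8 CPM in double-knockout, 13.8 and 14.2 in VHL-restored, and 23.99 and 22.9 in parental libraries. It fell 1.68-fold in VHL-restored cells (adjusted p = 2.3e-08), and in double-knockout cells its log2 fold change was 0.11 ± 0.09 (adjusted p = 0.33).

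HOXA3 and HOXA4 fell in both engineered lines. HOXA3 averaged 30.1 ± 1.25 CPM in double-knockout, 24.1 ± 0.952 in VHL-restored and 35.7 ± 1.98 in parental cells (SD, n = 2 each), and HOXA4 averaged 10.9 ± 1.23 CPM in double-knockout, 7.88 ± 0.627 in VHL-restored and 13.63 ± 0.258 in parental cells. In VHL-restored cells HOXA3 fell 1.48-fold and HOXA4 1.73-fold (adjusted p = 3.6e-07 and 2.9e-07). In double-knockout cells they fell 1.19-fold and 1.25-fold (adjusted p = 0.0081 and 0.0095). These double-knockout calls were lost for HOXA3 without parental library 1 (adjusted p = 0.154) or double-knockout library 2 (adjusted p = 0.0737), and for HOXA4 without either parental library or double-knockout library 2 (adjusted p from 0.0706 to 0.138). HOXA2, a hindbrain and branchial arch gene, had 2.39 and 2.21 CPM in double-knockout, 1.22 and 0.965 in VHL-restored, and 2.22 and 2.12 in parental libraries. It fell 1.99-fold in VHL-restored against parental cells (adjusted p = 0.00038) and was 2.11-fold higher in double-knockout than in VHL-restored cells (adjusted p = 0.000103). HOXA6 and HOXA7 stayed under 1 CPM in every library. HOXA6 fell 2.25-fold in double-knockout cells (adjusted p = 0.018), lost without either parental library or double-knockout library 1 (adjusted p from 0.0847 to 0.199). HOXA6 was also lower in double-knockout than in VHL-restored cells (2.41-fold, adjusted p = 0.0081), lost without double-knockout library 1 (adjusted p = 0.132) or VHL-restored library 2 (adjusted p = 0.0631). In all, 2 of 11 HOXA members rose and 5 fell in double-knockout cells, beside 26.6% and 27.5% of all genes, and 6 fell in VHL-restored cells, beside 27.7%.

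In the HOXB cluster on chromosome 17, every gene called against parental cells was higher in the engineered line. HOXB2, which patterns the hindbrain, had 21.3 and 19.9 CPM in double-knockout, 18.1 and 18.2 in VHL-restored, and 8.56 and 9.35 in parental libraries. It rose 2.31-fold in double-knockout (adjusted p = 4.3e-12) and 2.03-fold in VHL-restored cells (adjusted p = 2.6e-10), with both lines above both parental libraries. HOXB9, a posterior gene, had 3.73 and 4.70 CPM in double-knockout, 2.11 and 3.11 in VHL-restored, and 0.977 and 0.485 in parental libraries. It rose 5.48-fold in double-knockout (adjusted p = 5.4e-10) and 3.41-fold in VHL-restored cells (adjusted p = 1.6e-06). These folds depend on the parental libraries: without parental library 1 the log2 fold changes were 3.10 in double-knockout, against 2.45 over all libraries, and 2.42 in VHL-restored cells, against 1.77. HOXB9 was 1.61-fold higher in double-knockout than in VHL-restored cells (adjusted p = 0.0026), which was lost without double-knockout library 2 (adjusted p = 0.143) or VHL-restored library 1 (adjusted p = 0.0560).

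HOXB4, a factor of blood stem cells, averaged 15.6 ± 1.14 CPM in double-knockout, 19.1 ± 1.45 in VHL-restored and 11.5 ± 1.56 in parental cells (SD, n = 2 each). It rose 1.66-fold in VHL-restored cells (adjusted p = 4.1e-07). It rose 1.35-fold in double-knockout cells (adjusted p = 0.00082), which was lost without parental library 2 (adjusted p = 0.0783) or double-knockout library 1 (adjusted p = 0.0545). HOXB3, its neighbour, averaged 15.3 ± 0.376 CPM in double-knockout, 19.8 ± 1.71 in VHL-restored and 14.03 ± 0.115 in parental cells and rose 1.41-fold in VHL-restored cells (adjusted p = 3.4e-05). HOXB7 averaged 8.69 ± 0.397 CPM in double-knockout, 11.1 ± 1.56 in VHL-restored and 8.60 ± 0.805 in parental cells, and its 1.28-fold rise in VHL-restored cells (adjusted p = 0.0096) was lost without parental library 2 (adjusted p = 0.170) or VHL-restored library 2 (adjusted p = 0.222). HOXB3 was lower in double-knockout than in VHL-restored cells (1.30-fold, adjusted p = 0.00084). HOXB4 and HOXB7 were lower there too, 1.23-fold and 1.28-fold (adjusted p = 0.012 and 0.0098). The HOXB4 call was lost without double-knockout library 2 or VHL-restored library 2 (adjusted p = 0.163 and 0.114), and the HOXB7 call without double-knockout library 1 or VHL-restored library 2 (adjusted p = 0.128 and 0.231).

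HOXB5 and HOXB6 lie between the expressed genes HOXB4 and HOXB7 and had at most 4 counts in any library. HOXB8 had 13 and 8 counts in double-knockout, 4 and 9 in VHL-restored, and 0 and 1 in parental libraries, so its level stayed under 0.5 CPM. It was called higher in double-knockout cells (ratio 19.98, counting interval 3.21 to 826, adjusted p = 0.0016) and in VHL-restored cells (ratio 12.2, counting interval 1.83 to 517, adjusted p = 0.018). Both ratios rest on 1 parental count. The first was lost without parental library 1 (adjusted p = 0.0592), and the second without parental library 1 (adjusted p = 0.172) or VHL-restored library 2 (adjusted p = 0.180). In all, 4 of 8 tested HOXB members rose in double-knockout cells, beside 26.6% of all genes, and 6 of 8 rose in VHL-restored cells, beside 26.5%, with the others not called.

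In the HOXC cluster on chromosome 12, genes moved in both directions. HOXC10, a posterior gene of hindlimb and lower trunk, had 15.7 and 17.6 CPM in double-knockout, 22.9 and 24.7 in VHL-restored, and 20.9 and 19.7 in parental libraries. It was 1.43-fold lower in double-knockout than in VHL-restored cells (adjusted p = 1.0e-05). Its calls against parental cells, 1.22-fold lower in double-knockout (adjusted p = 0.0081) and 1.17-fold higher in VHL-restored cells (adjusted p = 0.031), each depended on single libraries. The first was lost without parental library 1 or double-knockout library 1 (adjusted p = 0.141 and 0.126), and the second without either parental library or VHL-restored library 2 (adjusted p from 0.0850 to 0.203). HOXC4, the 3′-most member, had 6.84 and 6.37 CPM in double-knockout, 6.55 and 5.40 in VHL-restored, and 10.9 and 9.70 in parental libraries. It fell 1.56-fold in double-knockout (adjusted p = 2.8e-05) and 1.73-fold in VHL-restored cells (adjusted p = 1.5e-06). HOXC9 went up, with 8.06 ± 0.186 CPM in double-knockout, 8.76 ± 0.107 in VHL-restored and 6.00 ± 0.567 in parental cells (SD, n = 2 each). It rose 1.45-fold in VHL-restored cells (adjusted p = 0.00029). It rose 1.33-fold in double-knockout cells (adjusted p = 0.0041), which was lost without parental library 2 (adjusted p = 0.0657).

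HOXC8, a thoracic gene, fell 1.86-fold in double-knockout cells, to 1.54 and 1.52 CPM, against 3.13 and 2.47 CPM in parental libraries (adjusted p = 0.00032). VHL-restored libraries had 2.61 CPM each, 1.71-fold above the double-knockout ones (adjusted p = 0.0015). HOXC6 averaged 8.39 ± 0.325 CPM in double-knockout, 10.96 ± 0.928 in VHL-restored and 8.95 ± 0.495 in parental cells (SD, n = 2 each). It was lower in double-knockout than in VHL-restored cells (1.31-fold, adjusted p = 0.0034), which was lost without VHL-restored library 2 (adjusted p = 0.0600). Its 1.22-fold rise in VHL-restored over parental cells (adjusted p = 0.028) was lost without either parental library or VHL-restored library 2 (adjusted p from 0.0672 to 0.243). HOXC5, which shares its listed promoter with HOXC4, had a level near 1 CPM and was not called in any comparison. HOXC11 and HOXC13 stayed under 1 CPM in every library. HOXC13, known for hair and nail, rose 3.04-fold in double-knockout (adjusted p = 0.0050) and 2.31-fold in VHL-restored cells (adjusted p = 0.045). The first call was lost without parental library 1 (adjusted p = 0.0841), and the second without any 1 library except parental library 2 (adjusted p from 0.0575 to 0.260). Of the 8 members, 2 rose and 3 fell in double-knockout cells, beside 26.6% and 27.5% of all genes, and 4 rose and 1 fell in VHL-restored cells, beside 26.5% and 27.7%.

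To compare members with each other, CPM was divided by the length of the annotated exons in kb (GENCODE 29), which is approximate because the isoforms used are not known. On this length-scaled level, paralog group 9 was the highest group in each line, with sums of 38.6 ± 0.671 in double-knockout, 29.95 ± 0.765 in VHL-restored and 35.6 ± 1.21 in parental cells (SD, n = 2 each). HOXA9 made up 82% of the sum in double-knockout, 77.8% in VHL-restored and 79.1% in parental cells. Group 10 summed to 16.8 ± 1.29 in double-knockout, 16.7 ± 0.721 in VHL-restored and 23.9 ± 1.39 in parental cells. HOXC10 was its main member in each line, with 51.1% in double-knockout, 73.5% in VHL-restored and 43.8% in parental cells. Group 11 was lower in both engineered lines: its sum was 0.325 ± 0.0215 in double-knockout, 0.138 ± 0.0408 in VHL-restored and 3.34 ± 0.494 in parental cells, of which HOXD11 made up 98.3% in parental cells. Group 2 was higher in them, with sums of 14.5 ± 0.710 in double-knockout, 12.2 ± 0.0575 in VHL-restored and 6.93 ± 0.316 in parental cells and HOXB2 as its main member. Group 7 was almost all HOXB7 (98.8% to 99.5%). Groups 12 and 13 summed to at most 0.756 in any line.

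**Figure D3:**
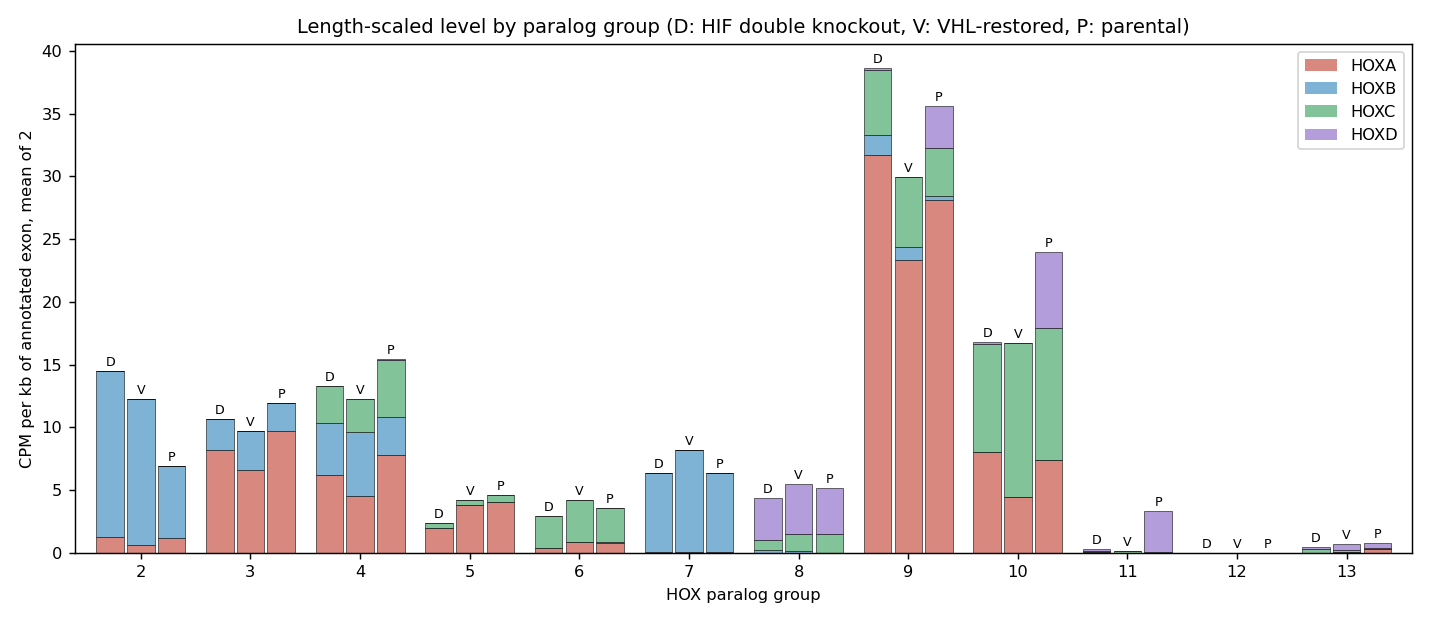
Bars show the length-scaled level (CPM per kb of annotated exon, mean of 2 libraries) summed over the members of the paralog groups from 2 upward, coloured by cluster, for double-knockout (D), VHL-restored (V) and parental (P) cells. HOXD makes a visible part of groups 9, 10 and 11 in parental cells and adds at most 0.203 to any of them in either engineered line. In double-knockout cells this is still 62.5% of the small group 11 sum of 0.325.

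Summed over its members, the HOXD cluster held 13.1 ± 0.594 CPM in double-knockout, 12.9 ± 0.523 in VHL-restored and 38.2 ± 0.205 in parental cells (SD, n = 2 each). The HOXB sum was 64.8 ± 0.778 CPM in double-knockout, 71.0 ± 2.18 in VHL-restored and 44.0 ± 2.09 in parental cells. The HOXA sum was 143 ± 0.212 CPM in double-knockout, 104 ± 1.48 in VHL-restored and 144 ± 0.495 in parental cells. The HOXC sum was 43.0 ± 0.735 CPM in double-knockout, 53.9 ± 1.46 in VHL-restored and 49.9 ± 3.02 in parental cells. All members together summed to 264 ± 0.849 CPM in double-knockout, 242 ± 5.66 in VHL-restored and 276 ± 5.80 in parental cells. HOXD took 4.97% of HOX counts in double-knockout, 5.31% in VHL-restored and 13.8% in parental cells. HOXB took 24.5% in double-knockout, 29.4% in VHL-restored and 15.9% in parental cells. These are shares of counts and are not corrected for length.

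**Figure D4:**
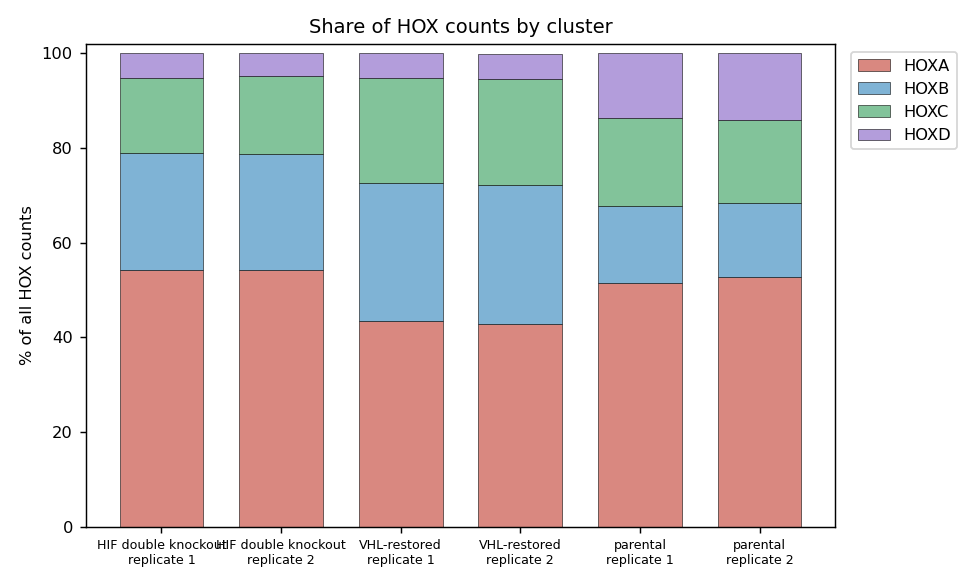
Stacked bars give the share of all HOX counts (%) in each cluster for each library. The HOXD share is near 5% in the 4 engineered libraries and near 14% in the 2 parental ones, and the HOXB share is larger in the engineered ones.

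Promoter windows were listed for 20 of the 39 human HOX genes, some with several start sites, 27 windows in all. The sequences printed above hold 4 matches to ACGTG or GCGTG for HOXD11, 2 for HOXD10, 1 for HOXD8 and 0 for HOXA13, counted on both strands. The palindrome CACGTG counts as 2 overlapping matches and occurs once in each of HOXD11 and HOXD10. Of all 35116 promoter windows, 48.4% hold at least 1 such match, against 70.4% of the HOX windows. Both cores contain a CG, and these shares are not adjusted for the higher CG content of HOX windows given below. The HOX windows are not independent: HOXA3 has several, and the same window is counted for HOXC4 and for HOXC5. HOXB1 is the only HOXB gene among them. The HOX-PBX motif TGATNNAT (both strands, as for all motifs) was in 11.1% of HOX and 7.4% of all windows, the retinoid receptor motif AGGTCA in 0 of 27 HOX windows and 13.8% of all, and the TATA box TATAAA in 18.5% and 11.5%. HOXA2, HOXD11 and HOXB1 held 1 TGATNNAT match each. The HOXB1 window is among the 27 although its transcript was not analysed. The windows hold a median of 22 CG dinucleotides in HOX and 14 in all promoters, with 27 in HOXD11, 23 in HOXD10, 34 in HOXD8 and 44 in HOXA13. A match describes these letters and is not evidence of binding.

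Of 22 noncoding RNAs of the clusters, 9 symbols were in the table and 7 had counts. HOTAIR, transcribed from the HOXC cluster and known for binding chromatin regulators, had 1.16 and 1.05 CPM in double-knockout, 1.68 and 1.61 in VHL-restored, and 0.337 and 0.397 in parental libraries. It rose 3.03-fold in double-knockout (adjusted p = 0.00025) and 4.49-fold in VHL-restored cells (adjusted p = 9.2e-07). HOTAIRM1, at the 3′ end of the HOXA cluster, had 7.97 and 10.1 CPM in double-knockout, 5.37 and 6.08 in VHL-restored, and 3.67 and 3.18 in parental libraries. It rose 2.60-fold in double-knockout cells (adjusted p = 9.2e-10) and 1.66-fold in VHL-restored cells (adjusted p = 0.00015). It was 1.57-fold higher in double-knockout than in VHL-restored cells (adjusted p = 6.8e-05). HOXD-AS1, within the HOXD cluster, had 17.1 and 13.8 CPM in double-knockout, 16.1 and 14.9 in VHL-restored, and 24.1 and 22.5 in parental libraries. It fell 1.51-fold in double-knockout (adjusted p = 4.2e-06) and 1.502-fold in VHL-restored cells (adjusted p = 4.7e-06). The other 4 with counts were not called, so 2 of 7 rose and 1 fell against parental cells in each line. Over all genes, 26.6% rose and 27.5% fell in double-knockout cells, and 26.5% rose and 27.7% fell in VHL-restored cells. HOXA-AS4, a HOXA antisense RNA not among the 22, was higher in both engineered lines. It averaged 23.0 CPM in double-knockout, 26.55 in VHL-restored and 18.5 in parental cells. The strand setting of the counting is not given, so reads of a HOX gene and an overlapping antisense RNA cannot be told apart.

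The counts of flanking genes and of the lists after them are to be read beside all genes, of which 26.6% rose and 27.5% fell in double-knockout cells and 26.5% rose and 27.7% fell in VHL-restored cells. Beside HOXD, LNPK (listed as KIAA1715), which shapes the endoplasmic reticulum, fell 1.23-fold in double-knockout and 1.70-fold in VHL-restored cells (adjusted p = 0.0014 and 7.2e-10). On the other side MTX2, a mitochondrial import gene, had 42.9 CPM in double-knockout and 41.2 in parental cells (adjusted p = 0.54). It fell 1.16-fold in VHL-restored cells, to 35.5 CPM (adjusted p = 0.0223), which was lost without parental library 2 (adjusted p = 0.326) or VHL-restored library 1 (adjusted p = 0.114). Of 7 tested HOXD neighbours, 1 rose and 3 fell in double-knockout and 1 rose and 4 fell in VHL-restored cells. Of 8 HOXA neighbours, 4 rose and 3 fell in double-knockout cells, and 7 fell in VHL-restored cells, among them SKAP2, an adaptor, 2.80-fold (adjusted p = 7.6e-18), and SNX10, an endosomal sorting nexin, 3.61-fold (adjusted p = 6.1e-17). Of 11 HOXB neighbours, 1 rose and 8 fell in double-knockout cells, and 5 rose and 5 fell in VHL-restored cells. COPZ2 changed most among them, with 1.83 CPM in double-knockout, 0.161 in VHL-restored and 6.64 in parental cells. The fall was 3.65-fold in double-knockout (adjusted p = 1.5e-11) and 40.2-fold in VHL-restored cells (adjusted p = 2.3e-17). SKAP1, next to the 3′ end of HOXB, had 4.44 CPM in double-knockout, 3.97 in VHL-restored and 6.95 in parental cells. It fell 1.59-fold in double-knockout (adjusted p = 0.00034, lost without parental library 1 at adjusted p = 0.127) and 1.78-fold in VHL-restored cells (adjusted p = 2.5e-05). Of 11 HOXC neighbours, 3 rose and 3 fell in double-knockout cells, and 10 rose in VHL-restored cells. CALCOCO1, an autophagy receptor beside HOXC13, fell 2.57-fold in double-knockout (adjusted p = 3.1e-15) and rose 1.19-fold in VHL-restored cells (adjusted p = 0.0054).

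Among 11 TALE homeodomain genes, the family of HOX cofactors, 2 rose and 5 fell in double-knockout and 3 rose and 4 fell in VHL-restored cells (median log2 fold change -0.07 and 0.05, beside 0 for all genes). MEIS1 fell 2.15-fold to 1.853 CPM in double-knockout, against 3.97 CPM in parental cells (adjusted p = 1.9e-06). PBX3 rose 1.99-fold to 68.0 CPM in VHL-restored, against 34.2 CPM in parental cells (adjusted p = 3.5e-13). MEIS2 fell 1.87-fold in VHL-restored cells (adjusted p = 1.9e-07) and had 10.1 CPM in double-knockout and 9.26 CPM in parental cells (adjusted p = 0.38). Between the engineered lines 3 were higher and 7 lower in double-knockout cells, beside 28% of all genes higher and 28% lower.

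Of 31 Polycomb genes, 10 rose and 9 fell in double-knockout and 16 rose and 8 fell in VHL-restored cells (median log2 fold change 0.27 in the second). JARID2, an accessory Polycomb subunit that helps place the complex on DNA, had 45.3 and 43.1 CPM in double-knockout, 15.4 and 15.4 in VHL-restored, and 7.08 and 5.73 in parental libraries. It rose 6.83-fold in double-knockout (adjusted p = 4.7e-21) and 2.38-fold in VHL-restored cells (adjusted p = 2.65e-11), and the groups did not overlap. PHF19, another accessory subunit, rose 4.53-fold in VHL-restored cells (adjusted p = 2.8e-13). CBX7, a chromobox reader, fell 2.11-fold in double-knockout cells (adjusted p = 5.0e-09) and 1.27-fold in VHL-restored cells (adjusted p = 0.0104). Of 20 trithorax and elongation genes listed, 16 were matched; the MLL family genes KMT2A, KMT2B, KMT2C and KMT2D were not, because the table uses older symbols for that family. Of the 16, 3 rose and 8 fell in double-knockout and 8 rose and 6 fell in VHL-restored cells (median -0.22 and 0.11). MLLT3, a part of the elongation machinery that keeps HOX genes active in blood cells, fell 2.99-fold in double-knockout cells (adjusted p = 2.4e-15). In VHL-restored cells MLLT3 fell 1.28-fold (adjusted p = 0.00056). PSIP1, a chromatin tether of the MLL complex, fell 2.32-fold in double-knockout (adjusted p = 8.2e-15) and rose 1.57-fold in VHL-restored cells (adjusted p = 2.0e-09).

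Retinoic acid switches on anterior HOX genes in many cells. Of 17 tested retinoid genes, 5 rose and 4 fell in double-knockout and 8 rose and 4 fell in VHL-restored cells (median -0.03 and 0.60). RARA, a retinoic acid receptor, fell 3.33-fold to 32.7 CPM in double-knockout, against 109 CPM in parental cells (adjusted p = 6.9e-19). In VHL-restored cells it fell 2.06-fold, to 52.8 CPM (adjusted p = 8.95e-14). ALDH1A3, which makes retinoic acid, rose 2.70-fold to 109 CPM in double-knockout, against 40.3 CPM in parental cells (adjusted p = 1.7e-17). DHRS3, a retinaldehyde reductase, rose 2.28-fold in VHL-restored cells (adjusted p = 1.0e-09). Of the CDX and ParaHox list, 3 of 9 genes were in the table and 2 were tested. By edgeR 0 were called in any comparison, with 0 at an unadjusted p of 0.05 and 0 by DESeq2. Of 17 tested renal lineage transcription factors, 6 rose and 7 fell in double-knockout and 5 rose and 8 fell in VHL-restored cells. SALL1, a kidney progenitor factor, had 0.376 and 0.350 CPM in double-knockout, 19.96 and 17.4 in VHL-restored, and 44.45 and 37.6 in parental libraries. It fell 112-fold in double-knockout (adjusted p = 8.9e-25) and 2.203-fold in VHL-restored cells (adjusted p = 2.6e-12). PAX2, another, had 15.9 and 14.8 CPM in double-knockout, 0.859 and 1.36 in VHL-restored, and 1.48 and 1.85 in parental libraries. It rose 9.31-fold in double-knockout cells (adjusted p = 5.4e-18). POU3F3 averaged 2.82 CPM in double-knockout, 2.75 in VHL-restored and 29.98 in parental cells. IRX3 averaged 4.11 CPM in double-knockout, 8.44 in VHL-restored and 31.5 in parental cells.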

How the data were processed

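The authors deposited whole-number read counts for 19009 gene symbols in 6 columns. The table's name calls the counts normalized, but they are whole numbers with totals that differ between libraries, so they were used as raw counts. The submitters' processing notes list featureCounts 2.0.8, limma 3.58.1, HISAT2 2.2.1, FastQC 0.74 and Trimmomatic 0.39, and both hg38 and hg19. Their order, the build counted on, strandedness and the treatment of shared reads were not given in those notes.

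Of these genes, 18273 with at least 1 count were tested with edgeR 4.0.16 in R 4.3.3 (quasi-likelihood test, TMM, prior count 0.125, 3 group means over all 6 libraries, Benjamini-Hochberg adjustment over all genes). The common dispersion gave a biological coefficient of variation of 4.41%. SE is that of the same fit, and counting intervals are exact, at 95%. DESeq2 1.42.0 and the other alternatives are given at the end. Members and gene lists were chosen with earlier results of these data known. Values per library are given for members with at least 1 CPM in some library and a called change of at least 2-fold. They are also given for the highest member of each cluster per exon length in any line, except HOXB7. HOXB7 was the highest HOXB member in parental cells only and is given as mean and SD. HOXA10, HOXB8, HOXC4 and HOXC8 were added after their values were seen. From each other list, up to 4 called members with the largest change in a comparison could be named; values of a named gene in another comparison (such as MTX2, MEIS2, CALCOCO1 or SALL1) were added after they were seen. Some genes are not reported here by name or in the plots of single genes, although counts and sums over the members and lists, other than the marker sum, include them.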

Additional observations from a re-analysis of the deposited data

How the results depend on the processing

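Between double-knockout and parental cells, 13 to 21 HOX genes were called over the fits that left out 1 library each, and the lowest count came without parental replicate 1. DESeq2's own test called 15, 16 and 15 HOX genes in the 3 comparisons, against 21, 21 and 20 by edgeR. The shares of all genes given above are those of the main edgeR fit. They do not apply to the fits that left out 1 library, to DESeq2's test or to the replicate block below. The count over all genes also changed over the fits that left out 1 library. Whether the lower HOX counts in those fits or by DESeq2 are particular to HOX genes therefore cannot be read from these shares. The alternatives were followed for 77 HOX gene and comparison results, those of named members at 1 CPM or more in some line and the other calls reported by name. Of these 77, 60 were called, and 37 of these kept call and direction under every alternative run (DESeq2 size factors, median centring, filtering on expression, DESeq2's test, the pairwise fit, the replicate block, and leaving out each library). The 6 values that changed sign belonged to 4 results, none of them called, with adjusted p of at least 0.725. They were 0.0159 for HOXA5 in VHL-restored against parental cells without VHL-restored replicate 1, and 0.0879 for HOXC8 in the same comparison without parental replicate 1. They were -0.0782 and -0.0398 for HOXB7 in double-knockout against parental cells without parental replicate 2 and double-knockout replicate 2, and 0.128 and 0.159 for HOXC5 between the engineered lines without double-knockout replicate 2 and VHL-restored replicate 2. Over all fits without 1 library the ranges were -0.214 to 0.0159 for HOXA5, -0.0782 to 0.115 for HOXB7, -0.492 to 0.159 for HOXC5 and -0.257 to 0.0879 for HOXC8 in these comparisons. The cause was not tested. HOXD8 was called between the engineered lines under median centring, filtering on expression and the replicate block (adjusted p = 0.0296, 0.0446 and 0.0437).

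The labels do not say whether same-numbered libraries were paired. Over 13702 genes the correlation of same-numbered deviations was 0.133 for double-knockout and parental cells. It was -0.00241 for VHL-restored and parental cells and 0.0224 for the engineered lines. These values cannot decide the question, because counting noise lowers such correlations. The replicate block called 21, 20 and 21 HOX genes and ended the HOXC13 call in VHL-restored cells (adjusted p = 0.0599). At 0.5 CPM the members on were 21 in double-knockout, 23 in VHL-restored and 25 in parental cells, and at 2 CPM 18, 16 and 20. Depth limits the genes under 0.5 CPM, such as HOXB8, whose differences rest on a handful of counts.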
